A study of Mus musculus with 7 samples.

Results

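The genes described here encode feedback inhibitors of mitogen-activated protein kinase (MAPK) signalling: 7 dual-specificity phosphatases (Dusp1, Dusp2, Dusp4, Dusp5, Dusp6, Dusp7 and Dusp10) and 3 Sprouty and Spred proteins (Spry1, Spry2 and Spred1). They were picked by symbol, and all 10 had a row among the 23038 genes of the deposited table. Their transcripts were measured by Smart-seq2, which reads whole cDNAs from few cells, in haematopoietic stem cells (HSCs) of C57BL/6 mice, sorted from hindlimb marrow as lineage-negative cells with Sca1, cKit and CD150 and without CD48. Control libraries (3) came from Cre-negative littermates and mutant libraries (4) from Mx1-cre; Mettl3 fl/fl mice, in which the floxed gene of the m6A methyltransferase Mettl3 is deleted. Both groups had been given 10 µg of pIpC, a double-stranded RNA analogue that switches on the interferon-driven Mx1 promoter, at each of 5 injections, and were killed 10 days after the last one. Mx1-cre acts in all cells that respond to interferon, not in HSCs alone. The sources used here give no age or sex of the animals.

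ERK, JNK and p38 kinases are switched on by phosphorylation of a threonine and a tyrosine in their activation loop, and MAPK phosphatases remove both groups. Many of these phosphatase genes are themselves induced by the kinases, so that the signal shuts itself off. Sprouty and Spred proteins are also induced by growth factor signalling and act upstream, between the receptor and Raf. In HSCs, the stem cell factor receptor cKit feeds this pathway.

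The deposited values are RPKM (reads corrected for the length of the gene model and for sequencing depth), 1 mean per gene and group. No spread between animals can be computed, so each difference below is one between 2 means, without a test or a replicate check, and in bulk RNA fewer cells with a transcript and less transcript per cell cannot be told apart. Mettl3 was at 49.8 RPKM in the control mean and 9.60 RPKM in the mutant mean, 19.3% of control. The table carries a small offset, and 8499 genes whose means equal it in both groups were read as having no reads. All 11 HSC markers had reads in both groups, from 7.16 to 190.2 RPKM in controls and from 5.88 to 224 RPKM in mutants. Of 10 T and NK cell markers, 6 had no reads in either group, among them Cd3e and Cd8a, and the summed level was 128 RPKM in the control and 64.4 RPKM in the mutant mean, of which Nkg7 alone made 124 and 62.3 RPKM. Myeloid markers summed to 294 and 379 RPKM over 15 genes, 4 of them without reads in either group, and Prtn3 made 276 and 368 RPKM of it. B and plasma cell markers summed to 137 and 139 RPKM over 8 genes, of which Cd79b made 132 and 133 RPKM. Of the 4 with reads, 3 were higher and 1 lower, which was Igj, at 1.59 RPKM and the offset. Erythroid and megakaryocyte markers summed to 214 and 242 RPKM over 12 genes, of which Pf4 made 119 and 127 RPKM. Of the 10 with reads, 8 were higher and 2 lower, with Hbb-b1 at 2.30 and 7.79 RPKM and Hbb-b2 at 7.32 and 19.4 RPKM. Stromal and endothelial markers summed to 24.2 and 55.0 RPKM over 8 genes, of which Pecam1 made 22.0 and 50.1 RPKM. Of the 6 with reads, 4 were higher and 2 lower, with Sparc at 1.34 and 3.90 RPKM. The part of such cells in the results below was not tested.

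All 10 feedback genes had reads in both groups, and their levels spanned a wide range. Dusp1 had the highest level, 582 RPKM in controls, where it ranked 77 among all 23038 genes, and Dusp4 the lowest, 0.902 RPKM. In controls the order from high to low was Dusp1, Dusp2, Dusp6, Spry1, Dusp5, Spry2, Dusp10, Spred1, Dusp7 and Dusp4. The mutant mean had the same order except that Dusp7 stood above Spred1. Without a spread it cannot be said which neighbours in this order differ.

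**Figure D1:**
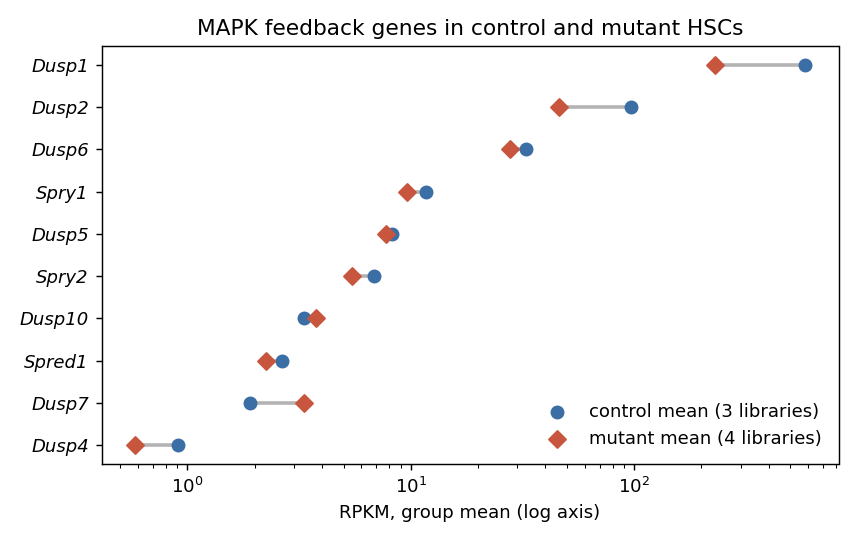
Group means in RPKM (log axis) of the 10 feedback genes, ordered by control level, with circles for the control mean of 3 libraries and diamonds for the mutant mean of 4 libraries. The pairs of points are widest apart for Dusp1 (582 and 230 RPKM), Dusp2 (96.9 and 46.0 RPKM) and, in the opposite direction, Dusp7 (1.90 and 3.32 RPKM).

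Dusp1 and Dusp2 were the members farthest apart, and both were lower in the mutant mean. Dusp1 (NCBI Gene 19252, chromosome 17, 26505591 to 26508472, GRCm38.p6) encodes a nuclear phosphatase of p38, JNK and ERK that is induced within minutes by stress and growth factors. It was at 582 RPKM in the control and 230 RPKM in the mutant mean, 60.4% lower, a log2 difference of -1.33 with a pseudocount of 1 RPKM added to both means. Its rank among all genes went from 77 to 395. Dusp2 (NCBI Gene 13537, chromosome 2, 127336159 to 127338377), a nuclear phosphatase known from activated blood cells, was at 96.9 RPKM in the control and 46.0 RPKM in the mutant mean, 52.5% lower (log2 difference -1.06). Both passed the 2-fold mark, a mark of size alone.

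The other nuclear phosphatases differed less. Dusp5 (NCBI Gene 240672, chromosome 19, 53529145 to 53541809), which is specific for ERK and holds it in the nucleus, was at 8.22 RPKM in the control and 7.77 RPKM in the mutant mean, 5.44% lower. Dusp4 (NCBI Gene 319520, chromosome 8, 34807610 to 34819894), a phosphatase of ERK and JNK, was at 0.902 and 0.582 RPKM, 1.55-fold lower. For a transcript of 2740 bases, and if the offset of the table is read as 1 read, these Dusp4 levels amount to about 58.7 and 44.8 reads a library, the fewest of the 10 members. The 4 nuclear phosphatases were thus all lower in the mutant mean, 2 of them by at least 2-fold.

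The promoters of these genes are printed because Dusp1 and Dusp2 stood apart while Dusp5, an inducible nuclear phosphatase too, did not. Each is the 250 bases before a RefSeq transcription start, 5′ to 3′ on the gene's strand (GRCm38.p6): Dusp1 at chr17:26508473-26508722 (minus strand), Dusp2 at chr2:127335909-127336158 (plus) and Dusp5 at chr19:53528895-53529144 (plus). Capitals mark matches, on either strand, to any of 8 motifs: the cyclic AMP response element (CRE, TGACGTCA) and its half-site (TGACG, which the full CRE contains), AP-1 (TGANTCA), the E-box (CACGTG), ETS (CCGGAAGT), EGR (GCGGGGGCG), the TATA box (TATAAA) and the serum response element.
Dusp1: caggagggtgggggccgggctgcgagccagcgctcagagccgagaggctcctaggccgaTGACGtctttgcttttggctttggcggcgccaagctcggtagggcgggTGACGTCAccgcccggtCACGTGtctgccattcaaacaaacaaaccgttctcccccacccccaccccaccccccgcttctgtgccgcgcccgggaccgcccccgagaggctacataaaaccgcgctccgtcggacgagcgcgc
Dusp2: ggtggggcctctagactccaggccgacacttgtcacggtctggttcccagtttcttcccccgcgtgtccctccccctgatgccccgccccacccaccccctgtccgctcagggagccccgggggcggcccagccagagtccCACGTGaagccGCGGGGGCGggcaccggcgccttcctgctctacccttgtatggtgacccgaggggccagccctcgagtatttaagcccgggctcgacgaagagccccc
Dusp5: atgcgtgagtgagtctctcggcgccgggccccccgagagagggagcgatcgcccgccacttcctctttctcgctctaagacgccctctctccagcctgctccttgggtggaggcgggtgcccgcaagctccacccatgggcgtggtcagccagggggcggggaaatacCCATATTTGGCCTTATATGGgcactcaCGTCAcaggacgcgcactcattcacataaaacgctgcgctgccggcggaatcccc
The Dusp1 window held a full CRE beginning 143 bases before the start, a further CRE half-site at 191 bases and an E-box at 126 bases. The Dusp2 window held an E-box at 109 bases and an EGR motif at 98 bases. In Dusp5, 2 serum response elements lay end to end at 82 and 72 bases, with a CRE half-site at 55 bases. Among all 32851 promoter windows of this length, 1.55% held a CRE, 17.8% a CRE half-site, 6.02% an E-box, 2.57% an EGR motif and 1.47% a serum response element, and 6 windows held more than 1 of the last. None of the 8 motifs was found in the windows of Dusp6, Dusp7, Dusp10, Spry1, Spry2 and Spred1, and the E-box was the single motif that Dusp1 and Dusp2 shared. A match is a description of letters and shows no binding.

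The cytoplasmic ERK phosphatases went in opposite directions. Dusp6 (NCBI Gene 67603, chromosome 10, 99263231 to 99267489), which keeps ERK in the cytoplasm and is widely used as a readout of ERK activity, was at 32.9 RPKM in the control and 27.7 RPKM in the mutant mean, 15.8% lower (log2 difference -0.24). Dusp7 (NCBI Gene 235584, chromosome 9, 106368560 to 106375724), its close relative, was at 1.90 and 3.32 RPKM, 1.75-fold higher (log2 difference 0.58 with the pseudocount and 0.81 without). Dusp7 was the member with the largest difference upwards, and at its level the pseudocount matters. Dusp10 (NCBI Gene 63953, chromosome 1, 184034381 to 184075636), which prefers JNK and p38, was the other member higher in the mutant mean, at 3.31 and 3.76 RPKM, 13.6% higher.

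The Sprouty and Spred genes were all slightly lower in the mutant mean. Spry1 (NCBI Gene 24063, chromosome 3, 37639947 to 37644599), an inhibitor of receptor signalling to Ras, was at 11.7 RPKM in the control and 9.65 RPKM in the mutant mean, 17.6% lower. Spry2 (NCBI Gene 24064, chromosome 14, 105891947 to 105896819), which also binds Grb2 and Cbl, was at 6.85 and 5.45 RPKM, 20.4% lower. Spred1 (NCBI Gene 114715, chromosome 2, 117121071 to 117182279), which brings the Ras inhibitor neurofibromin to the membrane, was at 2.66 and 2.24 RPKM, 15.9% lower. These 3 log2 differences lay between -0.28 and -0.18. For comparison, Spred2 was at 1.40 and 0.428 RPKM, 3.27-fold lower by the ratio of the means, and Spred3 at 0.298 and 0.370 RPKM. Spry4 was at the offset in controls, read as no reads, and at 0.294 RPKM in mutants, and Spry3 had no reads in either group.

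Of the 10 members, 8 were lower and 2 higher in the mutant mean, and the median log2 difference was -0.25. Over the 14539 genes with reads, 47.4% were lower and the median was 0.02. The 2-fold mark was passed downwards by 2 members (Dusp1 and Dusp2), against 3.47% of the genes with reads, and upwards by 0 members, against 3.67%. With the pseudocount of 1 RPKM, a gene under 1 RPKM in both groups, such as Dusp4, cannot pass the mark. Both shares would be higher over genes with at least 1 RPKM in a group, where the counts stayed at 504 lower and 534 higher. Since Dusp1 and Dusp2 are highly expressed, high genes are the closer comparison: of 2703 genes with at least 50 RPKM in a group, 1.48% were at least 2-fold lower, and of 6607 genes with at least 10 RPKM, 2.47% were. Among the 2703 genes, 17 had a log2 difference as low as or lower than that of Dusp1, itself included. Dusp2 reached 50 RPKM in the control mean alone, so its place is given among the 6607 genes. There, 147 genes (2.22%) were as low as Dusp2 or lower, itself included, and 25.2% were as low as Dusp6 or lower. Spry1 reached 10 RPKM in the control mean alone, and no place is given for it.

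**Figure D2:**
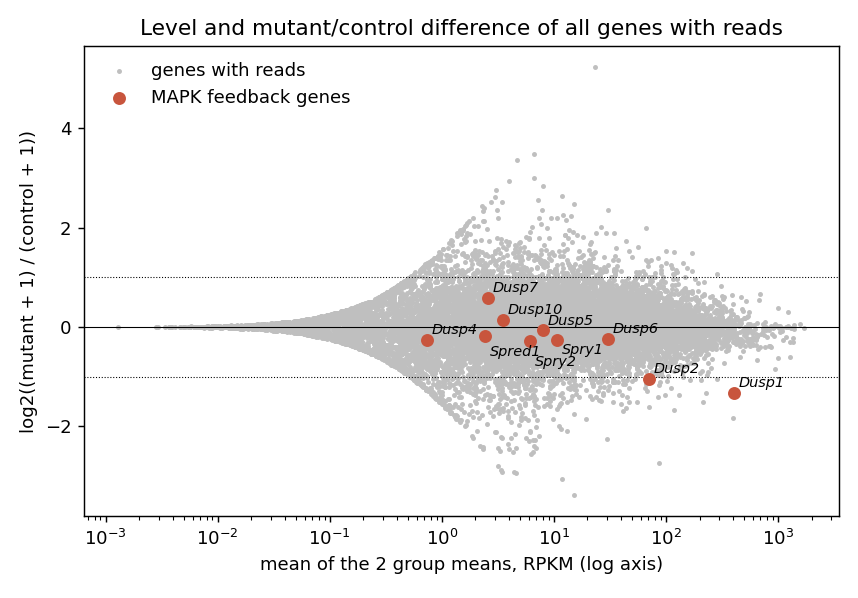
Mean of both group means in RPKM (log axis) against log2((mutant + 1) / (control + 1)) for the 14539 genes with reads, with the 10 feedback genes in red and dotted lines at a 2-fold difference. Dusp1 (-1.33) and Dusp2 (-1.06) lie below the lower line at the high end of the level axis, and the other 8 members lie between the lines.

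The 10 levels, which are per length, summed to 747 RPKM in the control and 337 RPKM in the mutant mean, 54.9% lower. Dusp1 made 77.9% of that sum in controls and 68.4% in mutants, and Dusp2 made 13.0% and 13.7%. Dusp1 and Dusp2 together accounted for 98.1% of the drop of 410 RPKM. Without Dusp1 the sum was 165 RPKM in the control and 106 RPKM in the mutant mean. Without both genes it was 68.4 and 60.5 RPKM, 11.7% lower, and the median log2 difference of the remaining 8 members was -0.21.

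**Figure D3:**
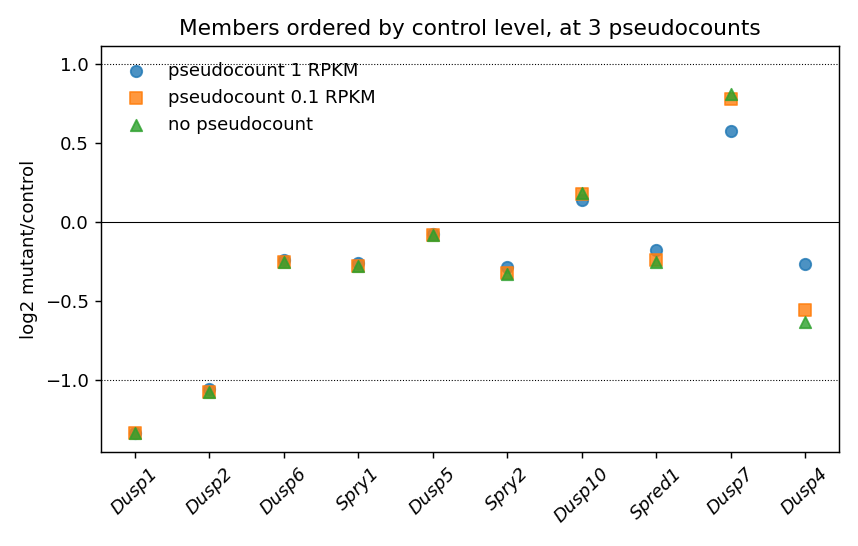
Log2 mutant/control difference of each member, ordered by control level from left to right, with a pseudocount of 1 RPKM (circles), 0.1 RPKM (squares) and none (triangles), and dotted lines at a 2-fold difference. The symbols coincide for Dusp1 and Dusp2 and spread for the low genes Dusp7 (0.58 to 0.81) and Dusp4 (-0.63 to -0.27).

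Features of the transcripts that the choice of members did not use were read from GENCODE M21, taking for each gene the coding transcript with the longest coding part. AU-rich elements, built from the pentamer ATTTA (in DNA letters) after the stop codon, are known from unstable transcripts such as those of immediate early genes. The stability of transcripts was not measured in these libraries. Dusp1 had 4 copies in 690 bases after its stop codon and Dusp2 had 4 in 581 bases, 5.80 and 6.89 per kb, the highest densities among the members. In the other 8 members the density ran from 0 in Dusp7 to 2.77 per kb in Spred1, which had 12 copies in 4330 bases. By count, Spred1 thus had the most copies and Dusp10 had 3, against a median of 1 over genes with at least 1 RPKM in a group. The median was 1.30 per kb over 9314 genes with at least 1 RPKM in a group and 100 bases after the stop codon, and 4.67% of these had a density as high as that of Dusp1 and 2.90% one as high as that of Dusp2. The 30-base stretches with the most copies are given for Dusp1 and Dusp2, and for Dusp10 and Spred1 as members that differed little, with the pentamers in capitals.
Dusp1: gctggtccttATTTATTTAacacccccctc
Dusp2: aaattaATTTAattaattaATTTActatat
Dusp10: aaaaacaaaaATTTATTTAaaaaatatttt
Spred1: taagaaagcATTTAtATTTAtatgacagct
Each of these stretches held 2 copies, overlapping in Dusp1 and Dusp10 and apart in Dusp2 and Spred1, so these 4 genes differ in density over the whole region and not in the count of the best stretch.

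The complex that contains Mettl3 methylates adenosines mostly within a short consensus whose commonest form is GGACT in DNA letters. Dusp6 held 8 copies in its transcript, Spry2 held 7, Spry1 and Dusp4 held 6 each, and Dusp1, Dusp7 and Spred1 held 4 each. Dusp10 held 3, Dusp5 held 2 and Dusp2 held 0, while 91.0% of 9969 genes with at least 1 RPKM held at least 1. The density was 2.01 per kb in Dusp1, against a median of 1.05 per kb. It was higher in Spry2 (3.35 per kb), Dusp6 (2.86), Dusp4 (2.19) and Spry1 (2.16), and lower in the remaining members. Of the 2 members at least 2-fold lower, Dusp1 had the motif and Dusp2 did not. The shorter core GGAC occurred 5 times in Dusp2 and 12 times in Dusp1. Forms of the consensus without GGAC were not counted, and the part of the motif in the differences was not tested. The core GGAC is common: 99.6% of the 9969 genes held it, with a median of 12 copies. Its density was 3.09 per kb in Dusp2 and 6.03 per kb in Dusp1, against a median of 4.21 per kb. The copy nearest the stop codon is shown for Dusp1, 271 bases after the stop codon, and for Dusp6, 14 bases before it, as the lower gene and the member with the most copies.
Dusp1: agaagagaaaGGACTctgtttgagg
Dusp6: tctaccaggtGGACTccctgcagtc
Methylation was not measured in these libraries, and a copy of the motif is not a methylated site.

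Overlapping genes could share reads with 3 members, and the sources used here do not say whether counting used strand. The exons of Dusp1 share 11 of 3311 bases with those of Ergic1, a gene on the opposite strand at 32.3 RPKM in the control and 34.7 RPKM in the mutant mean. Antisense or unclassified genes on the opposite strand cover 547 of 2473 exon bases of Dusp5 and 710 of 2906 exon bases of Spry1, so the values of these 2 genes are less certain.

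The rest of the pathway was read through 12 gene lists that hold 138 genes besides the members. Of the 126 with reads, 65 had a higher and 61 a lower mutant mean, with a median log2 difference of 0.02. With the pseudocount of 1 RPKM, 4 of them were past 2-fold upwards and 6 downwards. These counts depend on the pseudocount: they were 14 and 14 with 0.1 RPKM, and 11 and 14 with none. The counts over all genes rose too. Of the 14539 genes with reads, 534 were past 2-fold upwards and 504 downwards with 1 RPKM, and 1508 and 1347 with 0.1 RPKM. With none, which leaves out genes at the offset in either group, they were 1282 and 1238. With the pseudocount of 1 RPKM, 7.14% of the genes with reads were at least 2-fold apart. Genes under 1 RPKM in both groups count in that share but cannot pass. Genes past 2-fold are counted below on this pseudocount scale.

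Among 10 receptors with reads, 8 were higher and 2 lower (median 0.11), and none was 2-fold apart on the pseudocount scale. The lower ones were Flt3, the FLT3 ligand receptor, at 9.76 RPKM in the control and 4.71 RPKM in the mutant mean, and Kit, the stem cell factor receptor, at 67.4 and 39.9 RPKM. Of 13 adaptors and Ras exchange factors, 6 were higher and 7 lower (median -0.04) and none was 2-fold apart on the pseudocount scale. The farthest were the exchange factor gene Sos2, at 4.37 and 2.03 RPKM, and the docking protein gene Gab2, at 2.96 and 1.44 RPKM.

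The core of the cascade held genes past 2-fold in both directions. Of 16 Ras, Raf, MEK and ERK genes and their scaffolds, 10 were higher and 6 lower (median 0.19). Hras, listed in the table under its older symbol Hras1, was at 11.1 RPKM in the control and 26.7 RPKM in the mutant mean, and the related Rras was at 47.5 and 21.9 RPKM, the only genes of the list past 2-fold on the pseudocount scale. By the ratio of the means, Braf, a Raf kinase, was 2.98-fold higher (0.813 and 2.42 RPKM) and the scaffold gene Ksr2 7.07-fold higher (0.0506 and 0.358 RPKM). Ksr2 is under 1 RPKM in both groups, where a ratio rests on little. With the pseudocount its log2 difference was 0.37, against 0.92 for Braf. Of 13 other negative regulators of Ras and receptor signalling with reads, 7 were higher and 6 lower (median 0.08). The ubiquitin ligase gene Cbl was at 0.567 and 3.20 RPKM and the phosphatase subunit gene Ppp2ca at 76.3 and 171 RPKM, both at least 2-fold higher on the pseudocount scale.

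Of 15 other readouts of ERK activity with reads, 7 had a higher and 8 a lower mutant mean (median -0.12), and 3 were at least 2-fold lower on the pseudocount scale. These 3 are immediate early genes: Fos, an AP-1 subunit, at 617 RPKM in the control and 171 RPKM in the mutant mean, Ier2 at 319 and 112 RPKM, and the zinc finger factor gene Egr1 at 120 and 52.6 RPKM. Not all immediate early genes of the list were that much lower. Junb was at 133 and 75.5 RPKM and Ier3 at 74.4 and 47.4 RPKM. Egr2 (0.166 and 0.494 RPKM), Fosl1 (3.61 and 4.42 RPKM) and Maff (2.39 and 2.41 RPKM) were not lower. The ETS factor genes of this list differed in direction: Etv5 was at 5.85 and 6.05 RPKM, Etv4 at 0.250 and 0.704 RPKM, and Etv1 at 0.129 RPKM in the control mean and at the offset in the mutant mean. Ccnd1, cyclin D1, was at 9.10 and 8.28 RPKM. Braf, Ksr2, Junb, Ier3, Egr2, Fosl1, Maff, Etv1, Etv4, Etv5 and Ccnd1 were chosen for mention after their values were seen. Dusp1 (-1.33) and Dusp2 (-1.06) lay near Egr1 (-1.18) on the log2 scale and above Ier2 (-1.50) and Fos (-1.84), whereas Dusp6 (-0.24), Spry1 (-0.26) and Spry2 (-0.28) lay between these and Ccnd1 (-0.12). Immediate early genes respond to handling of cells as well as to signals in the animal, and the part of handling was not tested.

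**Figure D4:**
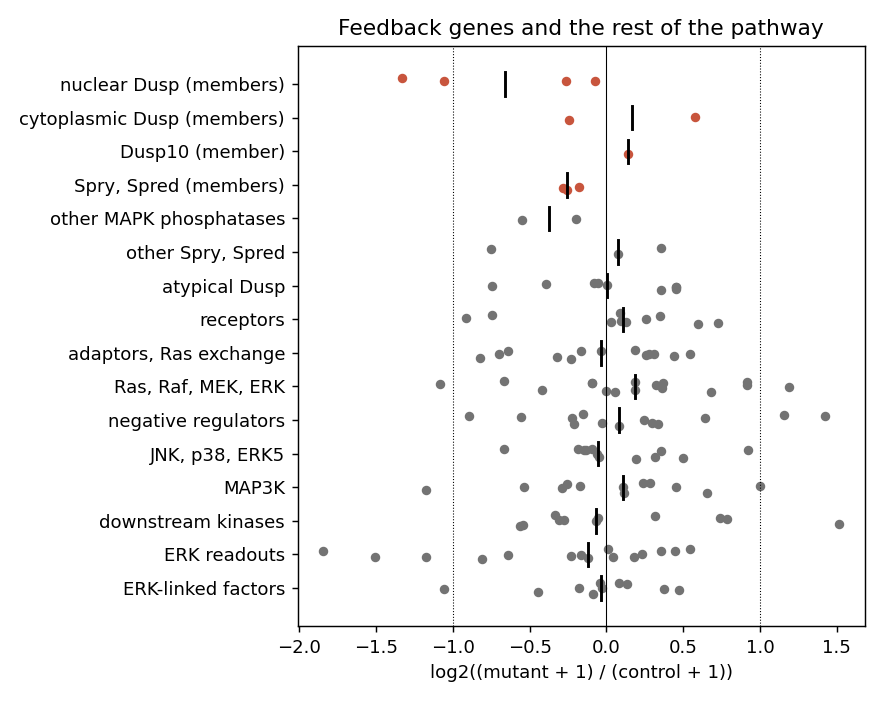
Log2((mutant + 1) / (control + 1)) of each gene with reads (points, spread vertically for visibility) in the subgroups of members (red) and in the other pathway lists (grey), with a black bar at the list median and dotted lines at a 2-fold difference. The nuclear phosphatases have a median of -0.66, midway between Dusp2 and Dusp4, and every other list median lies between -0.37 and 0.19.

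Outside the members, no gene of the phosphatase family was 2-fold apart on the pseudocount scale. Of the other MAPK phosphatases, Dusp16, which acts on JNK and p38, was at 1.79 RPKM in the control and 0.904 RPKM in the mutant mean, Dusp9 was at 0.208 and 0.0516 RPKM, and Dusp8 had no reads. Of 14 atypical dual-specificity phosphatases, 9 had reads, 5 higher and 4 lower, with a median of 0.00 and none 2-fold apart on the pseudocount scale. Dusp19 was at 11.9 and 16.7 RPKM and Dusp26 at 1.15 and 0.279 RPKM. Over the 24 Dusp genes of these lists, 18 had reads. On the pseudocount scale, 2 were at least 2-fold lower, the members Dusp1 and Dusp2 counted above, and 0 were at least 2-fold higher. Of all genes with reads, 3.47% were at least 2-fold lower and 3.67% higher on that scale, so 0 higher among 18 is near the share. By the ratio of the means, Dusp26 (4.11-fold) and Dusp9 (4.04-fold), both at low levels, were also lower by that much.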

How the data were processed

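The authors deposited 1 table of RPKM, per the file headers with 1 column for controls (3 libraries) and 1 for mutants (4 libraries), so libraries had been pooled into a group mean before deposit. Each library came from 150 sorted cells read as paired ends of 100 bp, per the labels' protocols. Genome build mm10 and the tools Picard and edgeR are named in the submitters' processing notes; the sources used here give neither their roles nor the aligner, annotation or kind of average. For 8499 genes the mean of mutants was 0.841 times that of controls and each mean a constant over a whole number of bases, 0.0414 RPKM (control) and 0.0349 RPKM (mutant) at 1 kb, read as 1 added read and no reads. If that holds, libraries had 19.6 to 31.1 M reads (megareads) in controls and 25.7 to 37.7 M in mutants.

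Differences are log2((mutant + 1) / (control + 1)) (Python 3.11.15, pandas 2.3.3), which understates low genes; 2-fold is a rule of size. The calculation was run on simulated differences in genes with at least 10 RPKM in both groups. That checks the arithmetic alone, without low genes or a spread between animals. With 1 value per group no test was run. Members and lists were chosen with earlier results of these data known. Named genes were all members, Mettl3, Spry4, Spred2, Fos, Egr1 and the 2 genes farthest apart of each pathway list among those with at least 1 RPKM in a group; others are given as examples. A gene of the planned lists is not reported here. Symbols without a row were sought by NCBI Gene identifier. Gene coordinates and promoters come from RefSeq (GRCm38.p6; 9 of 10 members had a promoter) and transcripts from GENCODE M21. Other pseudocounts, scalings, a minimum level and another threshold were tried.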

Additional observations from a re-analysis of the deposited data

How the results depend on the processing

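All settings were planned, and a value was counted as moved when it changed by over 1.5 times. Dusp1 and Dusp2 stayed the only members at least 2-fold apart, both lower, with pseudocounts of 0.1 RPKM and none. The same held with a minimum of 1 RPKM and with both rescalings of the columns. At a 1.5-fold threshold with the pseudocount of 1 RPKM, Dusp1 and Dusp2 alone passed, and Dusp7 (0.58) lay just under it. By the ratio of the means, Dusp7 (1.75-fold higher) and Dusp4 (1.55-fold lower) passed 1.5-fold too. The median of the members stayed between -0.27 and -0.24 and Mettl3 between -2.37 and -2.25. Among the members, Dusp4 alone moved, to -0.56 with the pseudocount of 0.1 and -0.63 with none, since it is under 1 RPKM in both groups, and it was left out by the minimum of 1 RPKM. In the pathway lists, genes past the threshold numbered 14 higher and 14 lower with the pseudocount of 0.1, 11 and 14 with none, and 15 and 18 at 1.5-fold, in place of 4 and 6. Over all genes with reads, 1508 were 2-fold higher and 1347 lower with the pseudocount of 0.1, in place of 534 and 504. With none they numbered 1282 and 1238, and at 1.5-fold 1883 and 1516. Spry4 has no ratio without a pseudocount, as its control mean is at the offset. No paired analysis was possible because each column holds a single mean for its group. For the same reason leaving out replicates in turn was not run, and no result could be checked against the spread between animals. At the lowest member, Dusp4, the depth is about 58.7 and 44.8 reads a library if the offset is 1 read.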

Other observations

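In the branches of MAPK signalling that run beside ERK, genes differed in both directions. Of 12 JNK, p38 and ERK5 kinases and their activating kinases with reads, 5 had a higher and 7 a lower mutant mean, with a median log2 difference of -0.06 and none 2-fold apart on the pseudocount scale. Mapk11, the beta isoform of p38, was at 1.43 RPKM in the control and 3.59 RPKM in the mutant mean, and Map2k6, an activator of p38, at 11.6 and 6.97 RPKM. Of 12 MAP3K genes, 7 were higher and 5 lower (median 0.11). Map3k8, the Tpl2 kinase that activates MEK downstream of inflammatory receptors, was at 7.93 and 2.96 RPKM, the one gene of this list past 2-fold on the pseudocount scale. Map3k7, the TAK1 kinase, was at 1.14 and 3.28 RPKM, 2.87-fold higher by the ratio of the means.

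Among 11 kinases downstream of MAPKs, 4 were higher and 7 lower (median -0.07). Rps6ka3, the ribosomal S6 kinase RSK2 that ERK activates, was at 4.52 RPKM in the control and 14.8 RPKM in the mutant mean, at least 2-fold higher on the pseudocount scale, and Mknk2, a kinase of the cap-binding factor eIF4E, at 8.31 and 15.1 RPKM. Of 10 transcription factors linked to ERK, 4 were higher and 6 lower (median -0.03), with Mitf at 4.50 and 1.64 RPKM, at least 2-fold lower on the same scale, and Ets1 at 1.17 and 2.01 RPKM. These 45 genes held 3 of the 10 pathway genes that were 2-fold apart on that scale. Over all genes with reads the share was 7.14%, and 3 of 45 is near it.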
